A study of Mus musculus with 10 samples.

Results

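The transforming growth factor beta (TGF-beta) genes described here are 10 genes, Tgfb1, Lrrc32, Itgb8, Itgav, Tgfbr1, Tgfbr2, Smad3, Smad7, Ski and Skil, chosen by name from the 22553 genes of the count table. TGF-beta is secreted as a latent complex in which a propeptide wraps the active ligand. Regulatory T cells (Treg), CD4 T cells that express Foxp3 and keep immune responses in check, hold this complex on their surface through GARP, the product of Lrrc32, and release the ligand with the integrin alpha-v beta-8, the products of Itgav and Itgb8. Active ligand binds the kinase receptors TGFBR2 and TGFBR1, which phosphorylate SMAD2 and SMAD3, while SMAD7, SKI and SKIL (SnoN) restrain the signal.

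The subject of the series is the role in Treg of TFAM, which helps to package mitochondrial DNA and takes part in its transcription. KO libraries came from Tfamfl/flFoxp3Yfp-Cre/+ mice, in which both Tfam alleles are floxed, and Ctrl libraries from Tfamfl/+Foxp3Yfp-Cre/+ littermates with 1 floxed allele, so Ctrl cells also lose 1 copy where Cre acts. All mice were C57BL/6 females heterozygous for Foxp3Yfp-Cre, and no age is given in the labels. Foxp3 drives the Cre and lies on the X chromosome, so in a heterozygous female only the Treg with the Cre-bearing X active carry Cre and YFP. The sort took YFP+ cells of spleen and lymph nodes, and each library pooled cells of 2 to 3 mice. There were 3 KO and 3 Ctrl libraries of poly(A) RNA, with 19087757 to 23794028 gene counts in KO and 21419772 to 27490253 in Ctrl. The labels do not say whether pools came from separate litters or days, so the p-values cover the spread between these libraries alone, and some of it may be technical.

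Tfam was at 15.6, 14.4 and 16.5 CPM (a gene's count relative to its library's TMM-scaled total) in KO replicates 1 to 3, against 25.9, 30.6 and 42.4 CPM in Ctrl replicates 1 to 3, and no library went against its label. KO over Ctrl, this is a log2 value of -1.09 ± 0.17 (SE, edgeR adjusted p = 0.0200). Reads outside the deleted part of the gene remain in these counts. All 6 Treg markers (Foxp3, Il2ra, Ikzf2, Ctla4, Cd3e and Cd4) were detected in every library, at a summed 2292 to 2491 CPM in KO and 2264 to 2555 CPM in Ctrl. RNA of other cells was present. The 9 macrophage markers summed to 423, 1041 and 363 CPM in KO replicates 1 to 3, against 335, 734 and 374 CPM in Ctrl replicates 1 to 3, so both libraries numbered 2 were highest. The 5 platelet markers summed to 20.2, 4.82 and 44.0 CPM in KO, against 19.2, 4.04 and 38.0 CPM in Ctrl, so both libraries numbered 3 were highest, and in both libraries numbered 2 Ppbp and Tubb1 were at 0. The summed levels of the 5 B cell markers (11.9 to 18.0 CPM in KO, 14.4 to 20.3 CPM in Ctrl), the 5 dendritic cell markers (4.72 to 13.4 CPM in KO, 4.64 to 11.3 CPM in Ctrl) and the 2 CD8 T cell markers (13.5 to 19.0 CPM in KO, 14.4 to 16.3 CPM in Ctrl) overlapped between groups, and those of the 4 stromal markers were 0.944 to 2.28 CPM in KO and 1.75 to 2.84 CPM in Ctrl. NK and neutrophil markers stayed under 0.4 CPM in sum. Of the 40 markers 31 were tested, and 0 were called by edgeR at an adjusted p under 0.05. With the replicate number as a block, edgeR called the macrophage markers Adgre1 (log2 fold change 0.40, adjusted p = 0.0273) and Vcam1 (0.37, adjusted p = 0.0233) higher and the Treg inhibitory receptor Ctla4 lower (-0.22, adjusted p = 0.0432), each with the same sign in all 3 pairs. DESeq2 with the block called Adgre1 and Vcam1 (adjusted p = 0.0322 and 0.00518) but not Ctla4 (adjusted p = 0.0843). The part of these in the values below was not tested.

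Of the 10 TGF-beta genes, 1 stood lower in KO in every library than in any Ctrl library, the integrin chain Itgb8. This order was found in 10.4% of all tested genes. The other 9 overlapped between the groups. All 10 passed the filter on low counts, with at least 240 counts in each library. By edgeR's quasi-likelihood test 0 of the 10 were called lower or higher at an adjusted p under 0.05, over all 11990 tested genes, of which 1.49% were called. DESeq2 and limma-voom, which called 2.82% and 1.16% of all tested genes, also called 0 of 10, and 1 of 10, Itgb8, had an unadjusted p under 0.05, as had 12.6% of all tested genes. The 9 genes other than Itgb8 had log2 fold changes (KO over Ctrl) between -0.07 and 0.14, and their 95% intervals reached no lower than -0.27 (Lrrc32) and no higher than 0.35 (Smad7). The median over the 10 was 0.01, against -0.0045 over all tested genes.

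**Figure D1:**
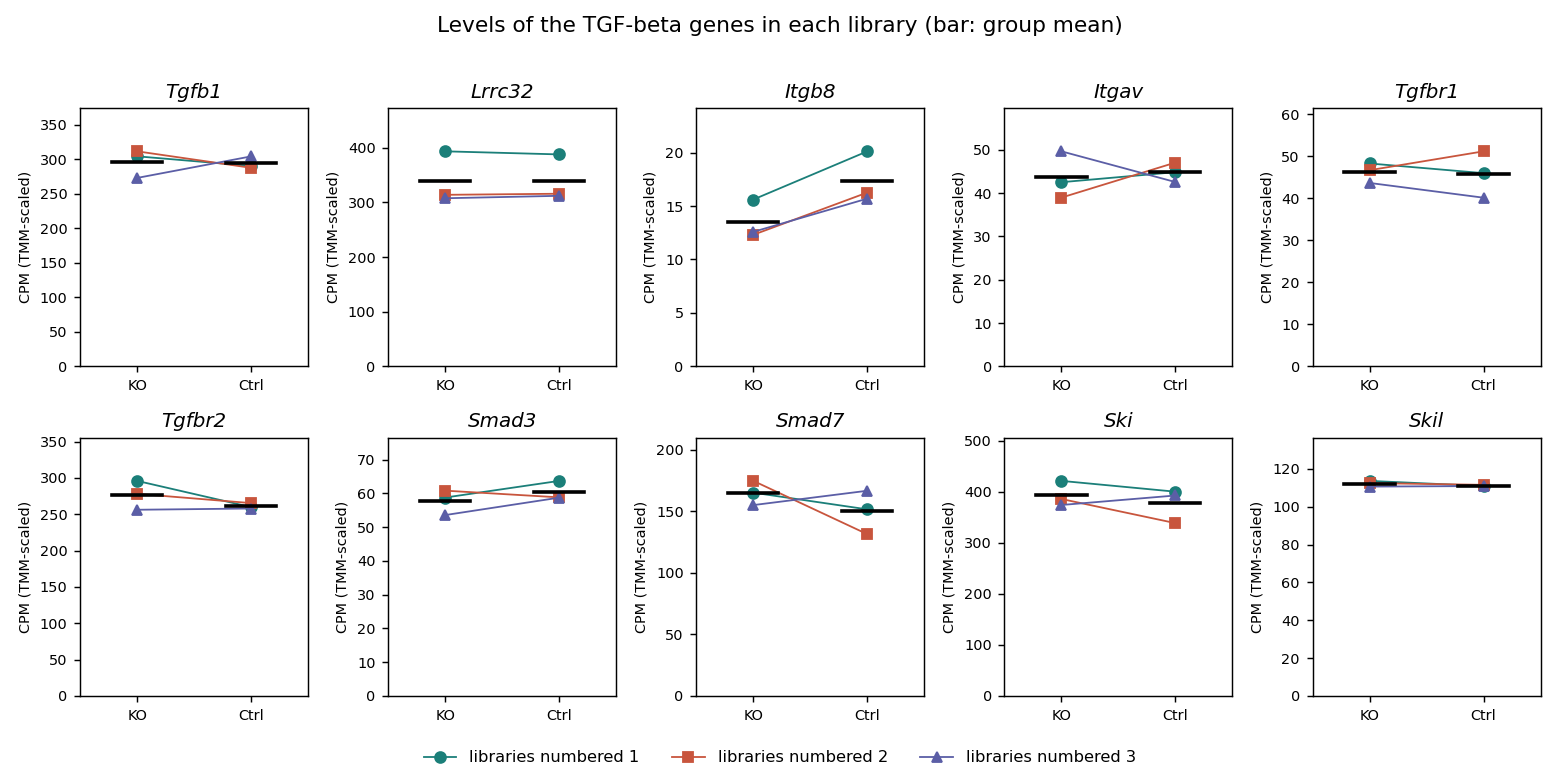
Level of each of the 10 genes in TMM-scaled CPM (vertical axis, from 0, separate for each gene) in the 3 KO and the 3 Ctrl libraries; lines join libraries with the same replicate number and black bars are group means. Itgb8 is the 1 gene whose 3 KO libraries (12.3 to 15.6 CPM) all lie under the 3 Ctrl libraries (15.7 to 20.1 CPM), an order found in 10.4% of all tested genes.

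Tgfb1 (ENSMUSG00000002603), the ligand gene, had 304, 312 and 273 CPM in KO replicates 1 to 3, against 290, 288 and 304 CPM in Ctrl replicates 1 to 3. KO replicate 3 held the lowest value of the 6 and KO replicate 2 the highest, so the groups overlapped. The fitted difference was 0.756% (95% interval -9.90% to 12.7%; log2 fold change 0.01 ± 0.07, SE, edgeR adjusted p = 0.969). Macrophages and platelets also make TGF-beta 1, and their markers were highest in the libraries numbered 2 and 3; their part in the Tgfb1 level was not tested.

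Lrrc32 (ENSMUSG00000090958), which encodes the docking receptor GARP, had 393, 314 and 308 CPM in KO replicates 1 to 3, against 388, 316 and 312 CPM in Ctrl replicates 1 to 3. The high library was number 1 in both genotypes, and within each number KO and Ctrl lay close together. Its log2 fold change was -0.0010 ± 0.12 (SE, edgeR adjusted p = 0.998), and its interval was -17.3% to 20.8%. The sign of this value was positive with DESeq2-type size factors, at 0.0067. With the replicate number as a block the log2 fold change was -0.0030 with a 95% interval of -0.13 to 0.12, narrower than in the fit without it (-0.27 to 0.27).

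Itgb8 (ENSMUSG00000025321) encodes the beta-8 chain, which pairs only with alpha-v and binds latent TGF-beta. It had 15.6, 12.3 and 12.6 CPM in KO replicates 1 to 3, against 20.1, 16.3 and 15.7 CPM in Ctrl replicates 1 to 3, from 240 to 370 counts in KO and 358 to 524 counts in Ctrl. The highest KO library, replicate 1, lay just under the lowest Ctrl library, replicate 3. Groups did not overlap in 19.1% of all tested genes, with KO lower in 10.4%. The fitted difference was -22.1% (95% interval -37.2% to -3.41%; log2 fold change -0.36 ± 0.14, SE), which did not pass over all genes (edgeR adjusted p = 0.322). Itgb8 ranked number 1035 of the 11990 genes by p. In bulk libraries fewer cells that express a gene and less RNA per cell cannot be told apart.

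The same-numbered libraries deviated together from their group means across genes, and with the replicate number as a block Itgb8 was called lower (log2 fold change -0.36 ± 0.09, SE, 95% interval -0.56 to -0.17, edgeR adjusted p = 0.0344). In that fit it was 1 of 10 genes called, against 6.36% of all tested genes. DESeq2 with the same block did not call it (adjusted p = 0.222). Without both libraries numbered 1, 2 or 3, the blocked edgeR fit no longer called it, at adjusted p-values of 0.161, 0.103 and 0.0958. Over all genes these fits called 335, 496 and 309 lower, against 526 with all pairs. Over all 16 alternative fits its log2 fold change lay between -0.47 and -0.23 and its adjusted p between 0.0344 and 0.681.

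The promoter of Itgb8 is shown because it is the 1 gene of the 10 whose groups separated. The RefSeq window, chr12:119238227-119238526 on the minus strand of GRCm38.p6, runs 250 bases before to 50 bases after the annotated start.

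Itgb8: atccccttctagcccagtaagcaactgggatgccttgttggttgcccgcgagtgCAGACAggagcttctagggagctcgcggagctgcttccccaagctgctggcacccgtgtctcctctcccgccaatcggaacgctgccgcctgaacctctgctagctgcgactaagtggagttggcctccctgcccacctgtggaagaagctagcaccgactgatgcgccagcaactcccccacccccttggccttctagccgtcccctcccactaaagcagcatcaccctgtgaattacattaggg

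The capitals mark CAGACA, the CAGA box that SMAD3 and SMAD4 can bind, searched on both strands (TGTCTG on the other). It begins 196 bases upstream of the start. Of all 32851 promoter windows of this length in the table, 21% hold the motif, so its presence is common. Of the 10 genes, 7 had a window in the table (8 windows), and Tgfbr1 had the motif in 1 of its 2 windows, 203 bases upstream.

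Itgav (ENSMUSG00000027087), the alpha-v chain and partner of beta-8, had 42.5, 39.0 and 49.7 CPM in KO replicates 1 to 3, against 44.9, 47.1 and 42.6 CPM in Ctrl replicates 1 to 3. KO replicates 2 and 3 were the lowest and the highest of the 6 libraries. The fitted difference was -2.48% (95% interval -16.4% to 13.7%; log2 fold change -0.04 ± 0.10, SE, edgeR adjusted p = 0.914), and it was positive, at 0.05, without KO replicate 2. Whether Itgb8 and Itgav differ in their change was not tested.

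By the smallest root mean square difference of log2 CPM over the 6 libraries, after centring each gene on its own mean, the 5 tested genes of at least 5 CPM most like Itgb8 were Arl15 (0.0659), Tlnrd1 (0.0673), Afdn (0.0799), Vangl2 (0.0813) and Prickle1 (0.0856). These genes were picked for likeness over the same KO and Ctrl libraries, so log2 fold changes near that of Itgb8 follow from the choice. The values were -0.37, -0.28, -0.26, -0.24 and -0.23. By edgeR without or with the block 0 of the 5 were called, against 1.49% and 6.36% of all tested genes.

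**Figure D2:**
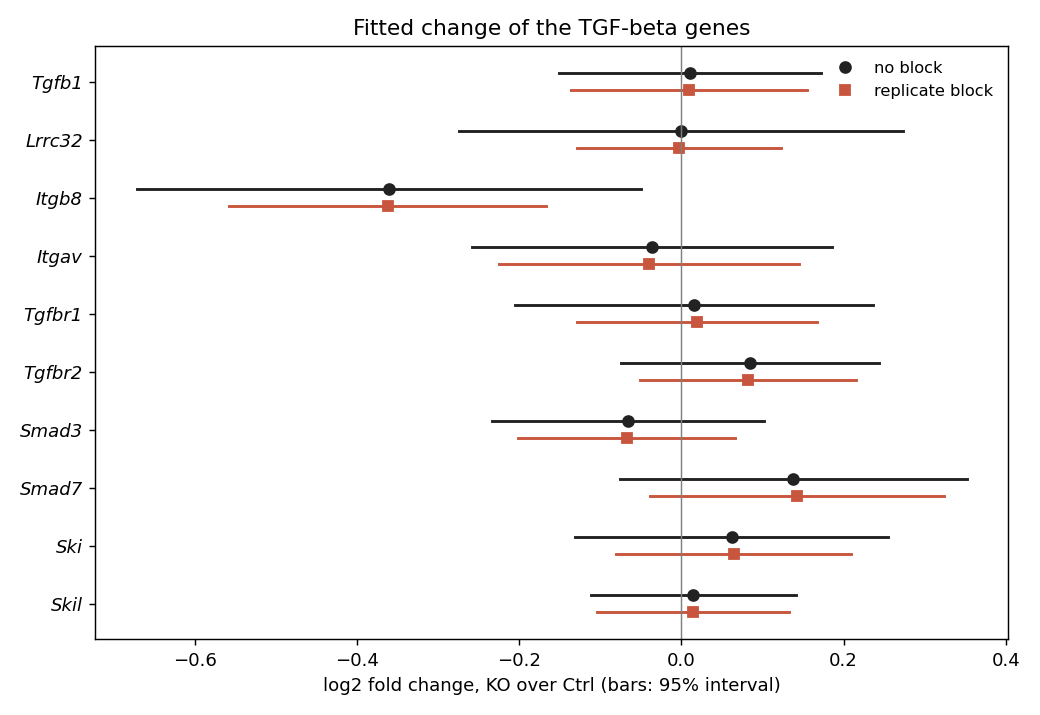
Fitted log2 fold change, KO over Ctrl (horizontal axis), of each of the 10 genes with its 95% interval, from edgeR without (black circles) and with (red squares) the replicate block. The interval of Itgb8, -0.67 to -0.05 without and -0.56 to -0.17 with the block, lies below 0, and the intervals of the other 9 genes include 0 in both fits.

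Neither receptor gene was called. Tgfbr1 (ENSMUSG00000007613), the type I receptor kinase that phosphorylates SMAD2 and SMAD3, had 48.3, 46.7 and 43.6 CPM in KO replicates 1 to 3, against 46.0, 51.2 and 40.1 CPM in Ctrl replicates 1 to 3. The KO values lay within the Ctrl range, and the fitted difference was 1.07% (95% interval -13.3% to 17.8%; log2 fold change 0.02 ± 0.10, SE, edgeR adjusted p = 0.968). Tgfbr2 (ENSMUSG00000032440), the type II receptor that binds the ligand first, had 296, 278 and 256 CPM in KO replicates 1 to 3, against 260, 265 and 258 CPM in Ctrl replicates 1 to 3. KO replicates 1 and 2 lay above all Ctrl libraries and KO replicate 3 below them. The fitted difference was 6.04% (95% interval -5.01% to 18.4%; log2 fold change 0.08 ± 0.07, SE, edgeR adjusted p = 0.668).

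Smad3 (ENSMUSG00000032402), the receptor-activated SMAD that carries the signal to DNA, had 58.7, 60.8 and 53.6 CPM in KO replicates 1 to 3, against 63.7, 58.8 and 58.7 CPM in Ctrl replicates 1 to 3. The groups overlapped, and the fitted difference was -4.46% (95% interval -14.9% to 7.30%; log2 fold change -0.07 ± 0.07, SE, edgeR adjusted p = 0.762). Smad7 (ENSMUSG00000025880), the inhibitory SMAD that blocks the activated receptor and is itself induced by TGF-beta, had 165, 175 and 155 CPM in KO replicates 1 to 3, against 152, 131 and 167 CPM in Ctrl replicates 1 to 3. Ctrl replicate 2 was the lowest library, and Ctrl replicate 3 lay above 2 of the 3 KO libraries. The fitted difference was 10.0% (95% interval -5.12% to 27.6%; log2 fold change 0.14 ± 0.09, SE, edgeR adjusted p = 0.589). The log2 fold change was 0.0513 without Ctrl replicate 2 and 0.0083 without both libraries numbered 2.

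Ski (ENSMUSG00000029050), a co-repressor that binds SMADs at target genes, had 421, 386 and 374 CPM in KO replicates 1 to 3, against 400, 338 and 392 CPM in Ctrl replicates 1 to 3. The groups overlapped, with a fitted difference of 4.41% (95% interval -8.66% to 19.3%; log2 fold change 0.06 ± 0.08, SE, edgeR adjusted p = 0.807). Skil (ENSMUSG00000027660), its relative and a gene that TGF-beta induces, had 114, 113 and 111 CPM in KO replicates 1 to 3, against 111, 112 and 111 CPM in Ctrl replicates 1 to 3. The 6 libraries lay within a few CPM of each other, and Skil had the smallest standard error of the 10 genes. Its fitted difference was 1.01% (95% interval -7.47% to 10.3%; log2 fold change 0.01 ± 0.06, SE, edgeR adjusted p = 0.947).

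Within same-numbered libraries, Itgb8 was lower in KO in 3 of 3 pairs, by similar amounts, with log2 CPM differences (KO minus Ctrl) of -0.37, -0.40 and -0.32 in pairs 1 to 3. All 3 pairs were lower in KO in 23.6% of tested genes and higher in 21.8%. The other 9 genes had pairs of both signs. The differences of Smad7 were 0.12, 0.41 and -0.10 and those of Itgav -0.08, -0.27 and 0.22, so pair 2 stood furthest from 0 in both. Lrrc32 (0.02, -0.0091 and -0.02) and Skil (0.04, 0.01 and -0.0037) differed least within pairs.

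**Figure D3:**
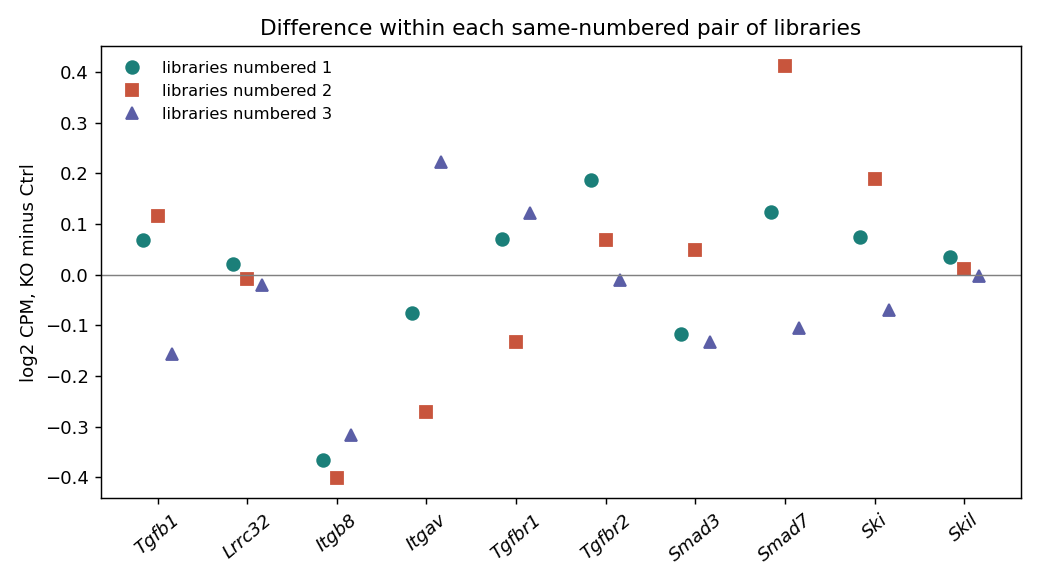
Difference in log2 CPM, KO minus Ctrl (vertical axis), within each pair of libraries with the same replicate number, for each of the 10 genes. All 3 Itgb8 points lie between -0.40 and -0.32, while each other gene has points on both sides of 0.

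The wider pathway was read from lists of 74 genes by role, these 10 included, of which 57 passed the filter on low counts. The lists were chosen with earlier results of these data known, so their shares of called genes do not test the pathway against other genes. Of the 57, 5 were called lower and 0 higher by edgeR, against 1.39% and 0.1% of all tested genes, and the median log2 fold change was 0.01. The 5 were Itgb1, Mmp9 and Mmp14 in the activation list, Itgae among genes induced by TGF-beta and Bmp7 among activin and BMP genes. DESeq2 and limma-voom each called 5 of the 57 too, against 2.82% and 1.16% of all tested genes. Of the 57, 8 had an unadjusted edgeR p under 0.05 with KO lower and 4 with KO higher, 12 in all, against 12.6% of all tested genes. In the lists of ligands (2 tested of 3), docking proteins (4 of 6), receptors (5 of 5), SMADs (6 of 8), repressors (15 of 15) and signal relay genes (5 of 6), 0 genes were called by edgeR without the block. Among the 17 genes not tested, Hgs, Bmpr1b and Inhbb were listed at 0 in all 6 libraries. The annotation used for counting is not given, so absent RNA and reads not assigned to the gene cannot be told apart there.

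**Figure D4:**
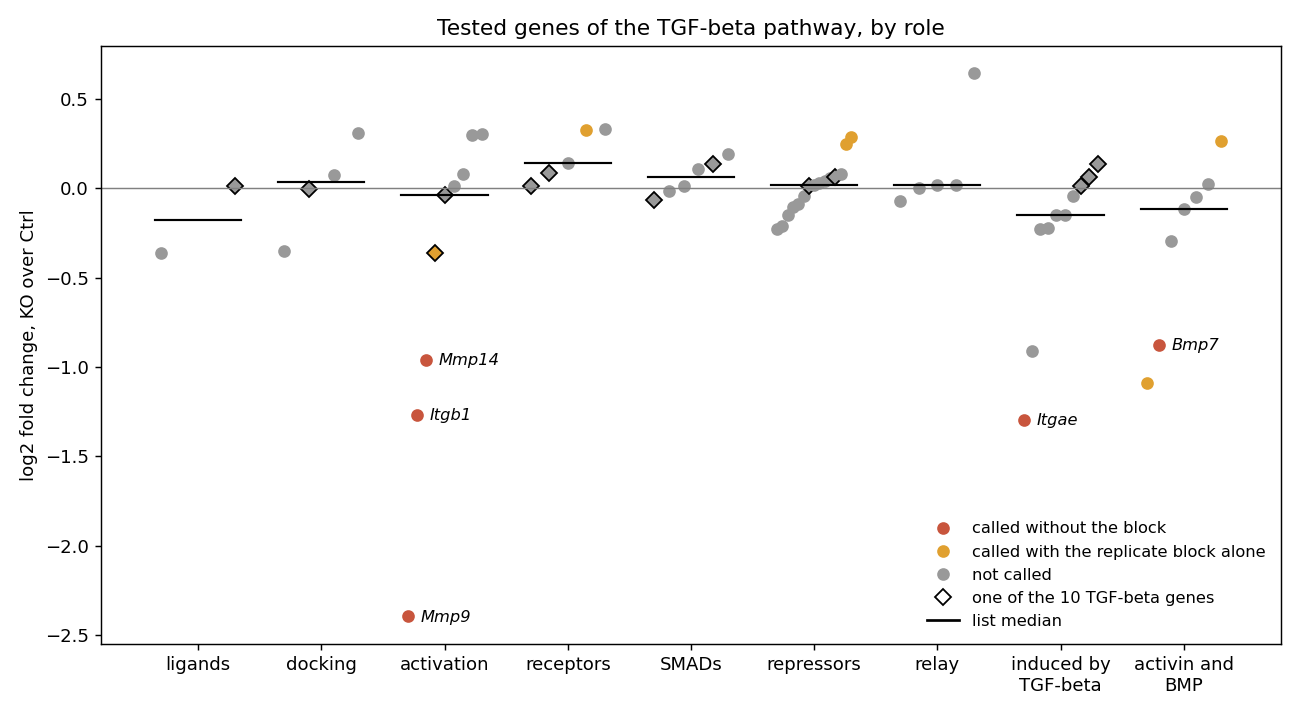
Log2 fold change, KO over Ctrl (vertical axis), of the 57 tested pathway genes grouped by role, with diamonds for the 10 TGF-beta genes, red for genes called by edgeR without the replicate block, orange for genes called with the block alone and a line for each list's median. The 5 red genes lie between -2.40 (Mmp9) and -0.87 (Bmp7).

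Itgb1 (ENSMUSG00000025809), the beta-1 chain that pairs with alpha-v and many other alpha chains, had 140, 152 and 171 CPM in KO replicates 1 to 3, against 297, 449 and 370 CPM in Ctrl replicates 1 to 3. Every KO library lay well below every Ctrl library, and Itgb1 fell 2.41-fold (log2 fold change -1.27 ± 0.14, SE, edgeR adjusted p = 0.00668). Beside it the log2 fold changes of the beta-3 chain Itgb3 and the beta-5 chain Itgb5 were 0.08 ± 0.10 (adjusted p = 0.785) and 0.31 ± 0.41 (adjusted p = 0.805). Itgb5 was highest in KO replicate 2 (25.1 CPM) and Ctrl replicate 2 (17.8 CPM), the libraries with the most macrophage marker RNA. Among the called pathway genes, Itgae, Mmp9 and Bmp7 were also highest in the library numbered 2 of each group. Itgb1 and Mmp14 were highest there in Ctrl but not in KO. The part of macrophage RNA in these levels was not tested. Itgb3 and Itgb5 were named after their values were seen.

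Mmp9 (ENSMUSG00000017737) and Mmp14 (ENSMUSG00000000957) encode matrix metalloproteinases that can cleave latent TGF-beta complexes. Mmp9 had 1.14, 1.41 and 0.525 CPM in KO replicates 1 to 3, against 5.72, 6.68 and 4.02 CPM in Ctrl replicates 1 to 3, a 5.26-fold fall (log2 fold change -2.40 ± 0.34, SE, edgeR adjusted p = 0.0132). Mmp14 had 5.32, 5.74 and 6.24 CPM in KO replicates 1 to 3, against 10.2, 12.2 and 11.2 CPM in Ctrl replicates 1 to 3, and fell 1.94-fold (log2 fold change -0.96 ± 0.13, SE, edgeR adjusted p = 0.00991). For both proteases the groups were widely separated.

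Bmp7 (ENSMUSG00000008999), a BMP ligand of the same superfamily, had 13.9, 15.1 and 13.0 CPM in KO replicates 1 to 3, against 23.0, 27.6 and 26.4 CPM in Ctrl replicates 1 to 3. It fell 1.83-fold (log2 fold change -0.87 ± 0.10, SE, edgeR adjusted p = 0.00677), with no overlap between groups.

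Among 13 genes listed as induced by TGF-beta, the median log2 fold change of the 10 tested was -0.15, against -0.0045 over all tested genes. The list was chosen with earlier results of these data known. Of the 10, 1 was called lower and 0 higher, against 1.39% and 0.1% of all tested genes. The 1 was Itgae (ENSMUSG00000005947), the alpha-E chain CD103, with 46.0, 59.7 and 41.7 CPM in KO replicates 1 to 3, against 98.4, 158 and 106 CPM in Ctrl replicates 1 to 3 (log2 fold change -1.30 ± 0.19, SE, edgeR adjusted p = 0.0162). The groups did not overlap. Smad7, Skil and Ski, inhibitors of the signal that are also on this list, had the values given above. Pmepa1 and Ldlrad4, which encode membrane proteins that sequester SMADs, were named after their values were seen and had log2 fold changes of -0.05 ± 0.11 (adjusted p = 0.910) and -0.23 ± 0.10 (adjusted p = 0.402). Cdkn1a, also named after its values were seen, was at -0.91 ± 0.32 (SE, edgeR adjusted p = 0.282). It averaged 0.733 CPM in KO and 1.38 CPM in Ctrl. Of the 10 tested genes, 7 had log2 fold changes below 0 and 3 above. In 3 of the 10, Itgae among them, every KO library lay below every Ctrl library, an order found in 10.4% of all tested genes. Reads of Itgae and of the gene Haspin, whose span overlaps it in RefSeq, cannot be told apart where exons overlap if the counting ignored strand.

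All 5 pathway calls were lost without KO replicate 1, at adjusted p-values of 0.0538 for Itgb1, 0.0842 for Mmp9, 0.0765 for Mmp14, 0.112 for Itgae and 0.0543 for Bmp7, where the log2 fold changes were -1.19, -2.47, -0.89, -1.24 and -0.86. The loss was general: over all genes that fit called 26 lower and 0 higher, against 167 and 12 with all 6 libraries. Mmp9 was also not called without Ctrl replicate 1 (0.0622), Mmp14 without KO replicate 2 (0.0539) or both libraries numbered 2 (0.109), and Itgae without KO replicate 3 (0.0887). Tfam lost its call without KO replicate 1 (0.109), 2 (0.0866) or 3 (0.0844), Ctrl replicate 2 (0.0551) or both libraries numbered 2 (0.123). Over all genes, the other fits named in this paragraph called 54 to 84 lower and 0 to 10 higher, also fewer than with all libraries.

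**Figure D5:**
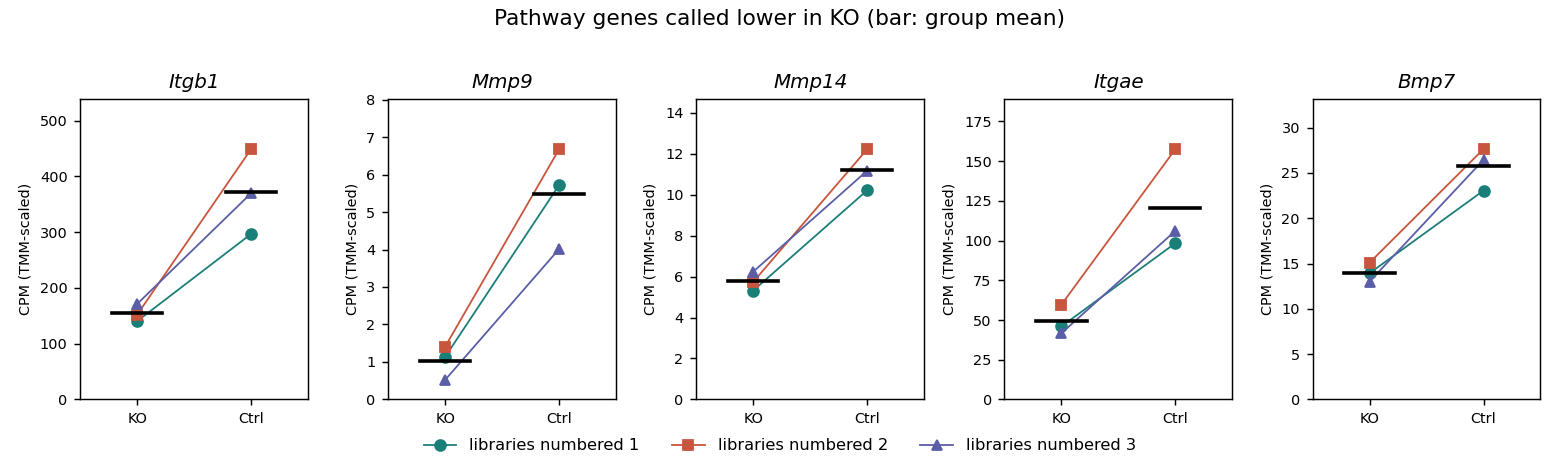
Level in TMM-scaled CPM (vertical axis, from 0) of the 5 pathway genes called lower, in the 3 KO and the 3 Ctrl libraries, with lines joining same-numbered libraries and bars for group means. For each gene all 3 KO libraries lie below all 3 Ctrl libraries, as with Itgb1 at 140 to 171 CPM in KO and 297 to 449 CPM in Ctrl.

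With the replicate block, 7 of the 57 pathway genes were called lower and 4 higher, against 4.39% and 1.97% of all tested genes. Besides the 5 above and Itgb8, the type I BMP receptor Bmpr1a was lower, with 0.717, 0.973 and 0.944 CPM in KO, against 1.61, 2.59 and 1.42 CPM in Ctrl (log2 fold change -1.07, edgeR adjusted p = 0.0334). The 4 higher genes were the co-receptor Tgfbr3, also called betaglycan (0.33, adjusted p = 0.0476), the ubiquitin ligases Smurf1 (0.25, 0.0247) and Nedd4l (0.29, 0.0263), which target SMADs and receptors for degradation, and the activin receptor Acvr1b (0.27, 0.0391). Tgfbr3 had 20.5, 18.8 and 18.7 CPM in KO, against 16.6, 15.7 and 14.0 CPM in Ctrl. Smurf1 had 68.4, 67.1 and 73.5 CPM in KO, against 59.5, 53.9 and 62.6 CPM in Ctrl. Their KO libraries lay above all Ctrl libraries, as did those of Nedd4l (42.1 to 46.5 CPM in KO, 34.5 to 38.6 CPM in Ctrl) and Acvr1b (36.0 to 39.9 CPM in KO, 30.2 to 32.1 CPM in Ctrl), an order found with KO higher in 8.63% of all tested genes. Without the block the adjusted p-values of these 5 genes lay between 0.14 and 0.224, and DESeq2 with the block gave 0.0952 to 0.275. In the blocked edgeR fit on 2 pairs, 1 of the 5 was called in any of the 3 fits, Nedd4l without both libraries numbered 1 (adjusted p = 0.0470). Over all genes, the fits without those numbered 1, 2 and 3 called 335, 496 and 309 lower and 205, 208 and 66 higher. With all 3 pairs the counts were 526 and 236.

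In the lists with 0 calls in either edgeR fit, the genes with the smallest p were Tgfb3 among ligands (log2 fold change -0.36 ± 0.32, SE, edgeR adjusted p = 0.689), Ltbp1, a latent TGF-beta binding protein (0.31 ± 0.21, 0.594), Smad5, a SMAD of the BMP branch (0.19 ± 0.09, 0.443), and Zfyve9, the SMAD anchor SARA (0.65 ± 0.53, 0.669). Tgfb3, Ltbp1 and Zfyve9 averaged under 2 CPM in both groups, so changes in them were measured with wide error. With 1 library left out, the log2 fold change ranged between 0.20 (without KO replicate 2) and 1.17 (without Ctrl replicate 2) for Zfyve9 and between -0.49 (without Ctrl replicate 3) and -0.07 (without Ctrl replicate 1) for Tgfb3.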

How the data were processed

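Poly(A) RNA of sorted YFP+ Treg was sequenced in 3 KO and 3 Ctrl libraries; the ATAC-seq samples were not analysed here. The values are read counts per Ensembl gene that the authors deposited as 1 table, named HTSeq counts in the labels. Per the submitters' processing notes, tools used in the series were Bowtie2, bedtools, Cufflinks, DESeq2, HISAT2, HTSeq and SAMtools, and builds mm9 and mm10; the role of each is not given. The sources used here give no version, annotation or strand setting, so reads of overlapping genes may be shared: 6 of the 10 genes overlap a lncRNA or pseudogene in RefSeq (GRCm38.p6). Symbols matched 22522 of 22553 IDs, and the others held 0.00269% of counts. Gene lengths were not used, so levels are compared within a gene alone.

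Counts were tested with edgeR 4.0.16 (R 4.3.3): filterByExpr (minimum count 10, minimum total 15) kept 11990 genes, with TMM scaling, the quasi-likelihood test and Benjamini-Hochberg adjustment over all of them. Standard errors (SE) and 95% intervals of log2 fold changes come from the F statistic. Alternatives used DESeq2 1.42.0, limma-voom (limma 3.58.1), DESeq2-type (RLE) size factors, no filter, the replicate block, and libraries left out. The test was tested on simulated data. A count of 3 equals 0.109 to 0.157 CPM; such floors cover counting error only. CPM are scaled by TMM factors, and log2 CPM adds 0.5 to counts.

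Replicate numbers come from the titles. Same-numbered KO and Ctrl libraries correlated at 0.30, 0.61 and 0.54 in their deviations from the group means over genes, other combinations between -0.56 and 0.06. Deviations cancel out within a group, so the low values of the other combinations are not separate evidence. On the same-numbered values the numbers were taken to pair the libraries, which the titles do not state. Libraries of 1 group differed by more than counting noise (chi-square per degree of freedom 8.75 to 27.4).

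The 10 genes, the lists and the alternatives were chosen with earlier results of these data known; the blocked fits without 1 pair were added after seeing the data. The genes named by rule were the 10, Tfam, pathway genes called in either edgeR fit, the gene of smallest p in a list with none, and the 5 genes most like Itgb8. Outside the rule, Itgb3, Itgb5, Pmepa1, Ldlrad4 and Cdkn1a were named after their values were seen, and Hgs, Bmpr1b and Inhbb for their counts of 0. Cell type markers and Haspin, which overlaps Itgae, were named apart from it.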

Additional observations from a re-analysis of the deposited data

How the results depend on the processing

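Over the 16 alternative fits, the 10 TGF-beta genes were called in 1 of 160 gene and setting combinations, Itgb8 lower with the replicate block, where 1 gene was called lower. Of all tested genes that fit called 4.39% lower and 1.97% higher. The 16 fits ranged from 26 to 526 genes lower and from 0 to 236 higher. With the block, the pathway genes called higher were 4, and the blocked fit without both libraries numbered 1 or 3 gave 1 each. The block called 6 further pathway genes and changed no other call on them. Pathway genes called lower numbered 0 to 5 with 1 library left out.

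Over all genes, 167 were called lower and 12 higher. DESeq2 called 262 lower and 76 higher, DESeq2 with the replicate block 300 and 138, limma-voom 3 higher, and edgeR with the replicate block 526 lower and 236 higher. The blocked fits without both libraries numbered 1, 2 and 3 called 335, 496 and 309 lower and 205, 208 and 66 higher. Without both libraries numbered 2 and with no block, 54 were lower and 0 higher (edgeR). Leaving out 1 library gave 26 to 166 lower and 0 to 10 higher; those fits had fewer samples.

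Of 160 values of the 10 genes, 22 changed sign, all of values that were called in no fit and at most 0.12 from 0. Tgfb1 was -0.0428 without both libraries numbered 2, -0.0443 in that fit with the replicate block, and -0.0083 in the blocked fit without those numbered 1. Lrrc32 was 0.0067 with RLE size factors, 0.0066 with DESeq2, 0.0043 with DESeq2 and the replicate block, 0.0017 with no filter, 0.0023 without both libraries numbered 2 and 0.0064 in the blocked fit without those numbered 3. Itgav was 0.0753 without both libraries numbered 2 and 0.0718 with the block added, and Tgfbr1 was -0.0293 in the blocked fit without those numbered 3. With 1 library left out, the log2 fold changes ranged between -0.0165 and 0.0660 for Tgfb1, -0.118 and 0.121 for Lrrc32, -0.137 and 0.0490 for Itgav, -0.0709 and 0.102 for Tgfbr1, 0.0513 and 0.221 for Smad7, and -0.0103 and 0.121 for Ski. The cause was not tested. Depth limits the pathway genes under 2 CPM more than the 10 genes, which had at least 240 counts in each library.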
